A study of Mus musculus with 8 samples.

Results

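Macrophage and myeloid genes were read in whole kidneys of E14.5 mouse embryos lacking Etv4, 4 mutant libraries against 4 control libraries. The genes were 35 symbols chosen by name: complement C1q chains, growth factor, chemokine and Fc receptors, scavenger receptors, lysosomal proteins, myeloid transcription factors and pan-leukocyte proteins. All 35 had a row among the 21291 gene rows of the deposited table. Mutants were Six2-GFPcre tg/+; Etv4-/-; Etv5fl/fl and controls were Six2-GFPcre tg/+; Etv4+/-; Etv5fl/fl, so Cre and the homozygous floxed Etv5 allele were shared, and controls carried 1 null Etv4 allele by label. Six2-GFPcre drives Cre in nephron progenitors, which form the nephron, and macrophages do not descend from them. The Etv4 null allele is not limited by the labels to any cell type. Each library was made by polyA selection from the pair of kidneys of an embryo, and controls were littermates, with the litters not named. Library names carry a number whose meaning the labels leave unsaid: mutants 1 and 2 share one with controls 1 and 2, mutant 4 shares another with control 4, and mutant 3 and control 3 each have their own.

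Macrophages of the fetal kidney arise from yolk sac and fetal liver precursors, and they depend on the CSF1 receptor, encoded by Csf1r. The transcription factor PU.1, encoded by Spi1, sets the myeloid gene programme, and it belongs to the ETS family, as Etv4 and Etv5 do. Tissue macrophages make the 3 chains of C1q, the first component of classical complement. They take up dying cells with scavenger and other receptors, and bind IgG with Fc receptors.

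Etv4 had 164 to 294 scaled counts in mutants and 2311 to 2816 in controls, and it fell (log2 fold change −3.51, SE 0.18, adjusted p = 2.62e-05, limma). Etv5, floxed in both groups, had 1487 to 2657 scaled counts in mutants and 3006 to 4085 in controls (−0.79, SE 0.17, adjusted p = 0.106). Scaled counts are estimated counts divided by a size factor per library. Total estimated counts ran from 35308934 to 38824018 in mutants and from 15515139 to 39548327 in controls. Control 4 was the shallowest library, and Lars2 took 18.4% of its counts, against 0.138% to 0.476% elsewhere. The Y-linked Ddx3y had 0 counts in every mutant and 1553 to 1629 scaled counts in controls, so sex differed with genotype in these libraries, and their effects cannot be told apart.

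The macrophage markers read first were C1qc, Csf1r and Adgre1, themselves among the 35 genes. Adgre1 encodes F4/80, a surface receptor of mouse macrophages. All 3 were present in every library, at no fewer than 52.5 scaled counts. Their presence does not show which cells made the RNA of the other genes. Of the 35 genes, 34 passed the filter of at least 10 scaled counts in at least 4 libraries, and 33 reached 10 in all 8. The exception among the 34 was Ms4a7, at 1.84 in control 1. Cd163, a haemoglobin scavenger receptor, did not pass: it had 8.16, 0, 0 and 5.27 scaled counts in mutants 1 to 4, against 5.53, 1.58, 0 and 8.30 in controls 1 to 4. Per kilobase of the longest annotated transcript, mean levels over the 8 libraries were highest for Stab1 (432 scaled counts per kilobase), C1qa (369), Laptm5 (310), C1qb (304), Coro1a (265) and C1qc (263). The lowest levels per kilobase among genes tested were those of Ms4a7 (9.01), Trem2 (5.18) and Itgam (4.95).

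Sequence upstream of these genes was compared for a motif of PU.1. In RefSeq windows of the 250 bases before the gene start (GRCm38.p6), 27 of the 35 genes matched, with 34 windows. GAGGAA, the core of the PU.1 motif read on both strands (TTCCTC on the other), was in 18 of those 34 windows and in 23.3% of all 32851 windows. The longer GAGGAAGT, which contains GAGGAA, was in 3 of 34 and in 2.44% of all windows. GGAA, the core shared by ETS factors including Etv4, was in 34 of 34 and in 93.4% of all windows. A match is a description of letters and was not tested as a site. The windows of C1qb, C1qc and Stab1 are shown as members of high level per kilobase whose printed bases hold GAGGAA. That of Vav1 is shown because it holds the longer motif, as does C1qc. Laptm5, at a level above C1qb, has 1 match in its window of 250 bases, inside the gene span, and 0 in the 59 bases outside it. Lcp1 has 0 in its whole window. Capitals mark GAGGAA or its reverse complement, and bases inside the GENCODE gene span were left off.
C1qb, chr4:136886201-136886450, minus strand: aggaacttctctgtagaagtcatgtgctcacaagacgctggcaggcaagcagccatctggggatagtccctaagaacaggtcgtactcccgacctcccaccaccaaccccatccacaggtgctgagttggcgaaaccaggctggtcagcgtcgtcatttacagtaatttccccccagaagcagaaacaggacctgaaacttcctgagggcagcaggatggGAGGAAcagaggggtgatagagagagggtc
C1qc, chr4:136893066-136893164, minus strand: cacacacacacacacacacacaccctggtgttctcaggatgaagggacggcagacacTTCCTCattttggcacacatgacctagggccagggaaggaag
Stab1, chr14:31168642-31168891, minus strand: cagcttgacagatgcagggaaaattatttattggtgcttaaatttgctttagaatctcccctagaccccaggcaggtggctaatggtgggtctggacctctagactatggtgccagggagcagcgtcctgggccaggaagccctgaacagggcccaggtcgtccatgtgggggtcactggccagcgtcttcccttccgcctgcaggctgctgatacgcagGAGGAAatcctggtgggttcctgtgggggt
Vav1, chr17:57278850-57279099, plus strand: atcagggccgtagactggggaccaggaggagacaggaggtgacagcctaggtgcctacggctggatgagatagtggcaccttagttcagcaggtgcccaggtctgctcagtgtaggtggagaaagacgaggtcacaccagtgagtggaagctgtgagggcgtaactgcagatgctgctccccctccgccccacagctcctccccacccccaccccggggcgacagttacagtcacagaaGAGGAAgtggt

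Of the 34 genes tested, 33 had higher fitted levels in mutants, and 0 passed the threshold. By limma, 0 of 34 had an adjusted p below 0.05, where 0.301% of all 14974 genes did (45 genes, 12 of them higher in mutants, 0.0801%). The lowest adjusted p was 0.10, for Stab1. At an unadjusted p below 0.05, 10 of 34 were higher in mutants, against 6.33% of all genes. Positive fold changes were found for 33 of 34, against 51.7% of all genes, and the median log2 fold change of the 34 was 0.48, against 0.0087 for all genes. In 7 of 34, every mutant lay above every control, against 4.17% of all genes. These 7 were C1qc, Csf1r, Cx3cr1, Stab1, Mpeg1, Laptm5 and Lcp1. In whole kidneys, more cells of a type and more RNA per cell cannot be told apart. The 34 genes were read in the same libraries and are not independent.

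**Figure D1:**
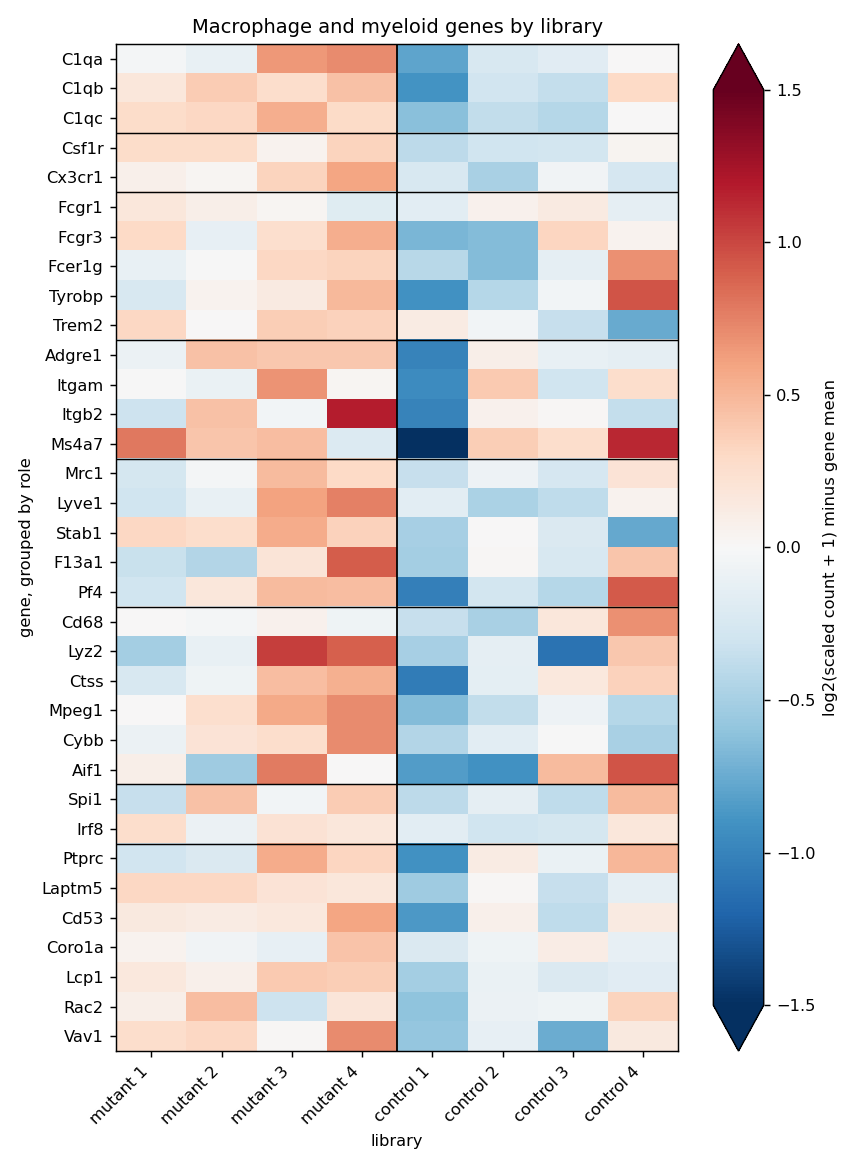
Level of the 34 genes tested in each library, as log2(scaled count + 1) minus the gene's mean over the 8 libraries, mutants left of controls, with lines between roles. Control 1 is the lowest of the 8 libraries in 22 of 34 genes, and mutant 4 is the highest in 14. These counts were not made over all genes.

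The complement C1q genes lie side by side on chromosome 4 (C1qb 136880129 to 136886187, C1qc 136889804 to 136893065, C1qa 136895917 to 136898803, minus strand, GENCODE M21 on GRCm38). C1qc, the C chain, had 369, 379, 445 and 373 scaled counts in mutants 1 to 4, against 197, 237, 226 and 307 in controls 1 to 4. Every mutant was above every control, and control 4 was the highest control. The means were 391.5 ± 35.9 in mutants and 241.9 ± 46.7 in controls (SD, n = 4 each), and the log2 fold change was 0.71 with an SE of 0.16 (adjusted p = 0.106). C1qb had 357, 414, 381 and 431 in mutants, against 170, 260, 247 and 390 in controls. Control 4 lay among the mutants and the other 3 controls lay below them. Its log2 fold change was 0.62 (SE 0.22, adjusted p = 0.295). C1qa had 356, 338, 572 and 596 in mutants, against 210, 308, 323 and 368 in controls (0.60, SE 0.24, adjusted p = 0.350). Mutants 3 and 4 stood apart from the rest for the A chain, which was not so for the B chain, and the chains therefore did not keep 1 ratio across libraries.

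Csf1r, the receptor for CSF1 and IL-34, had 948, 948, 812 and 986 scaled counts in mutants 1 to 4, against 597, 636, 648 and 806 in controls 1 to 4. The lowest mutant, mutant 3, was just above the highest control, control 4. Means were 923.6 ± 76.8 in mutants and 671.6 ± 92.1 in controls (SD, n = 4 each), and the log2 fold change was 0.46 with an SE of 0.12 (adjusted p = 0.143). C1qc over Csf1r, both in scaled counts, gave ratios of 0.390, 0.399, 0.548 and 0.378 in mutants and 0.330, 0.373, 0.350 and 0.381 in controls. Those ratios overlapped between the groups, with mutant 3 the highest. Cx3cr1, the fractalkine receptor, had 306, 295, 366 and 439 in mutants, against 246, 207, 281 and 243 in controls. All 4 mutants were above all 4 controls, with a difference of 0.51 on the log2 scale (SE 0.17, adjusted p = 0.244).

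The Fc receptors and ITAM adaptors were less separated. Tyrobp encodes DAP12, the adaptor for TREM2 and other receptors. It had 71.0, 87.3, 92.3 and 118 scaled counts in mutants, against 44.2, 62.4, 82.0 and 163 in controls. Control 4 was the highest of all 8 libraries. Fcer1g, the Fc receptor gamma chain, had 110 to 150 in mutants, against 88.4, 75.0, 108 and 191 in controls 1 to 4, with control 4 again the highest library. Fcgr1, the high-affinity IgG receptor, differed by 0.050 on the log2 scale (SE 0.21), and its values ran from 64.2 to 82.4 in mutants and from 65.4 to 80.1 in controls. Fcgr3, a low-affinity IgG receptor, and Trem2, a lipid-sensing receptor, had fold changes of 0.48 (SE 0.28) and 0.51 (SE 0.36) on the log2 scale. None of these 5 passed (adjusted p from 0.534 to 0.949). Fcgr3 resembles Fcgr2b and Fcgr4 in sequence, and no source used here gives how reads were shared between them. Fcgr2b had a fold change of −0.43 (SE 0.35, adjusted p = 0.671, limma) and Fcgr4 of 0.64 (SE 0.96, adjusted p = 0.836).

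Among adhesion and surface genes, Adgre1 had 100.3, 144, 141 and 142 scaled counts in mutants 1 to 4, against 52.5, 113, 98.8 and 96.9 in controls 1 to 4. Mutant 1 lay inside the range of the controls, and control 1 was far below the rest. Its log2 fold change was 0.58 (SE 0.27, adjusted p = 0.430). Ms4a7, a tetraspan surface protein of macrophages, varied most within groups: it had 44.9, 34.3, 35.7 and 21.98 in mutants, against 1.84, 33.2, 30.8 and 57.3 in controls. Its fold change of 0.73 (SE 0.84, adjusted p = 0.774) turned to −0.22 without control 1. The integrin chains Itgam (CD11b) and Itgb2 (CD18) were low, at 11.0 to 35.7 and 13.8 to 65.9 over the 8 libraries, with fold changes of 0.30 (SE 0.43) and 0.64 (SE 0.43).

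Scavenger receptor genes included Stab1, which encodes stabilin-1 and is also made by sinusoidal and lymphatic endothelium. Stab1 had 4112, 3972, 4887 and 4202 scaled counts in mutants 1 to 4, against 2349, 3339, 2865 and 1948 in controls 1 to 4. The groups did not overlap, and control 4 was the lowest library. Means were 4293 ± 407 in mutants and 2625 ± 606 in controls (SD, n = 4 each), and the log2 fold change was 0.73 with an SE of 0.15 (adjusted p = 0.10). Stab1 over Tie1, an endothelial receptor gene, gave ratios of 0.876, 0.820, 0.897 and 0.852 in mutants and 0.833, 0.810, 0.772 and 0.636 in controls. Mutants and controls overlapped in that ratio, with control 4 the lowest. Lyve1, a hyaluronan receptor of fetal macrophages and lymphatic vessels, had 159, 180, 298 and 331 in mutants, against 175, 140, 150 and 202 in controls. F13a1, coagulation factor XIII, had 151, 140, 218 and 358 in mutants, against 134, 193, 161 and 255 in controls. For both genes mutants 3 and 4 were above mutants 1 and 2, which lay within the control range. Fold changes were 0.48 (SE 0.26) for Lyve1, 0.16 (SE 0.31) for F13a1, 0.24 (SE 0.18) for the mannose receptor gene Mrc1 and 0.41 (SE 0.39) for Pf4, a chemokine gene of megakaryocytes and some macrophages. Adjusted p ran from 0.499 to 0.878 for these 4.

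Of the lysosomal and effector genes, Mpeg1, a pore-forming protein of phagocytes, had the highest fold change of the 34. Its scaled counts were 219, 261, 325 and 358 in mutants 1 to 4, against 139, 169, 208 and 163 in controls 1 to 4. Mutant 1 was above control 3 by a small margin, and the groups did not overlap (log2 fold change 0.76, SE 0.20, adjusted p = 0.151). Cd68, a lysosomal glycoprotein used as a macrophage stain, had the lowest: 108, 106, 113 and 103 in mutants, against 84.7, 76.6, 121 and 174 in controls. Mutants were close together and controls lay on both sides of them (−0.0089, SE 0.27, adjusted p = 0.993, or 0.22 without control 4). Lyz2, lysozyme of myeloid cells, had 92.2, 122, 271 and 246 in mutants, against 93.0, 120, 60.6 and 174 in controls (0.66, SE 0.42). As with Lyve1, mutants 3 and 4 stood high. Its near copy Lyz1 did not exceed 4.08 in any library. Aif1, encoding IBA1, had 53.0, 34.3, 86.2 and 50.1 in mutants, against 27.6, 26.1, 69.9 and 96.9 in controls (0.16, SE 0.48). Cybb, the catalytic subunit of the phagocyte oxidase, lies on the X chromosome and had a fold change of 0.54 (SE 0.24, adjusted p = 0.402). Sex differed with genotype for every gene, and its part in this fold change was not tested. Ctss, a lysosomal protease, had a fold change of 0.35 (SE 0.32).

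**Figure D2:**
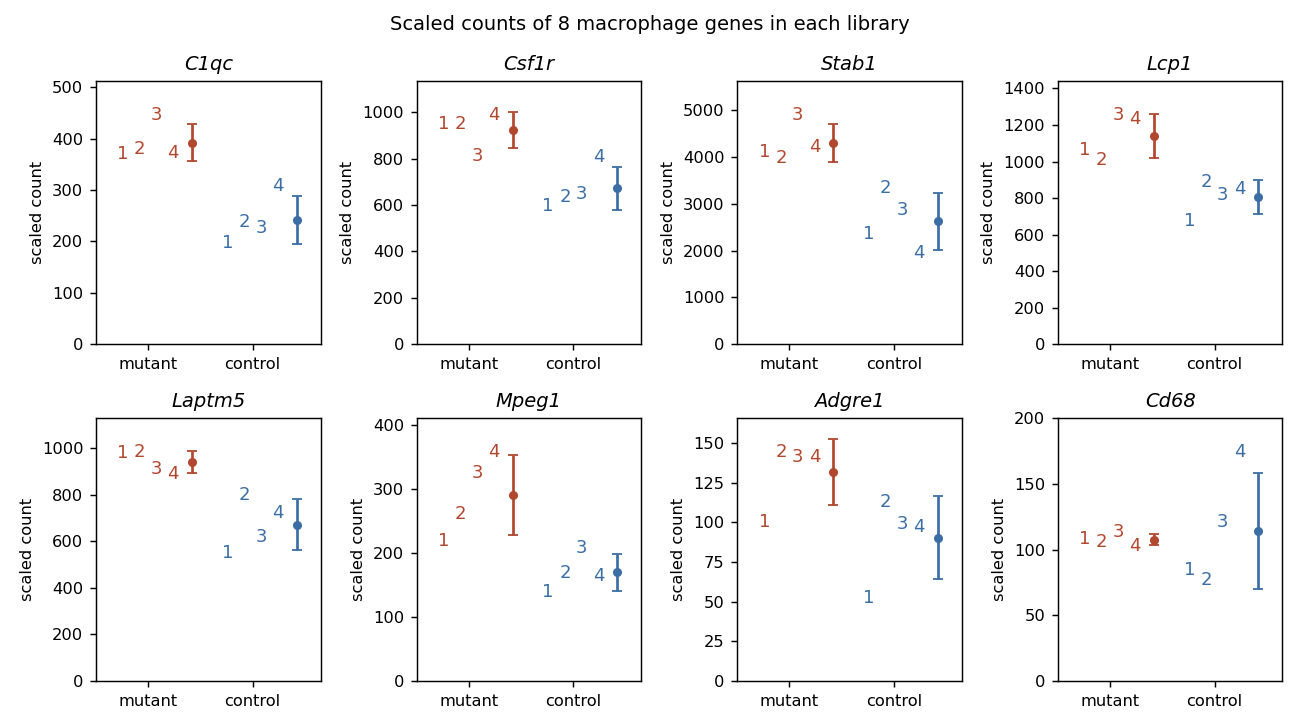
Scaled counts of 8 genes in each library, mutants left of controls. Digits are the replicate numbers, and the dot with bars is the mean ± SD of 4 libraries. Groups do not overlap for C1qc, Csf1r, Stab1, Lcp1, Laptm5 and Mpeg1, and they overlap for Adgre1 and Cd68.

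The transcription factors overlapped between the groups. Spi1 had 110, 192, 137 and 183 scaled counts in mutants, against 107, 128, 108 and 196 in controls (log2 fold change 0.21, SE 0.26, adjusted p = 0.791). The highest Spi1 value was in control 4, and the fold change was 0.41 without that library. Irf8, a partner of PU.1 in monocytes and macrophages, had 139 to 177 in mutants and 119 to 166 in controls (0.28, SE 0.18, adjusted p = 0.565).

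Among pan-leukocyte genes, the abundant Laptm5 and Lcp1 separated the groups and Ptprc did not. Lcp1, encoding the actin-bundling L-plastin, had 1063, 1010, 1253 and 1231 scaled counts in mutants 1 to 4, against 672, 888, 817 and 849 in controls 1 to 4 (0.50, SE 0.12, adjusted p = 0.119). Laptm5, a lysosomal membrane protein of blood cells, had 980, 983, 909 and 891 in mutants, against 548, 798, 620 and 722 in controls (0.50, SE 0.12, adjusted p = 0.139). In both genes every mutant was above every control and control 1 was the lowest library. Ptprc, encoding CD45, had 101, 106, 182 and 155 in mutants, against 65.4, 134, 115 and 174 in controls. Its groups overlapped, at a fold change of 0.19 (SE 0.32, adjusted p = 0.853). Vav1, a guanine nucleotide exchange factor, had a fold change of 0.65 (SE 0.30, adjusted p = 0.437), Cd53, a tetraspanin, 0.51 (SE 0.32), Rac2, a GTPase, 0.21 (SE 0.24) and Coro1a, an actin regulator, 0.15 (SE 0.14). Some genes share their locus with others: Csf1r overlaps Hmgxb3, Stab1 overlaps Nt5dc2 and Coro1a overlaps Bola2, each on the opposite strand. Lcp1 overlaps Gm15628 and Gm15629, also on the opposite strand. The annotated span of Cx3cr1 overlaps genes on both strands, among them Gorasp1 and Csrnp1 on its own strand and Wdr48 on the other. These are examples, and no source used here gives whether strand was used in counting.

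Control 4 held the highest control value in 21 of the 34 genes, a count that was not made over all genes. Among the 4 genes with a longest transcript under 1000 bases (Pf4, Tyrobp, Fcer1g and Aif1), control 4 exceeded the mean of controls 1 to 3 by 1.08 to 1.503 log2 units. The median excess was 0.53 for 9 genes of 1000 to 2000 bases, 0.40 for 12 of 2000 to 4000 bases and 0.00040 for 9 of 4000 bases or more. Over all genes tested with a length the medians in the same classes were 0.43, 0.26, 0.051 and −0.24. Spearman's rho between that excess and length was −0.55 across the 34 genes and −0.42 across 14118 genes, which share the same 4 libraries and are not independent. In each of the 4 length classes the median of the myeloid genes was above that of all genes. The 13 genes under 2000 bases had a mean centred log2 level of 0.41 in control 4 and of −0.70 to −0.14 in the other controls, while mutants ran from −0.031 to 0.44. For the 21 longer genes the level was 0.0058 in control 4 and −0.62 to −0.073 in the other controls, with 0.048 to 0.40 in mutants.

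**Figure D3:**
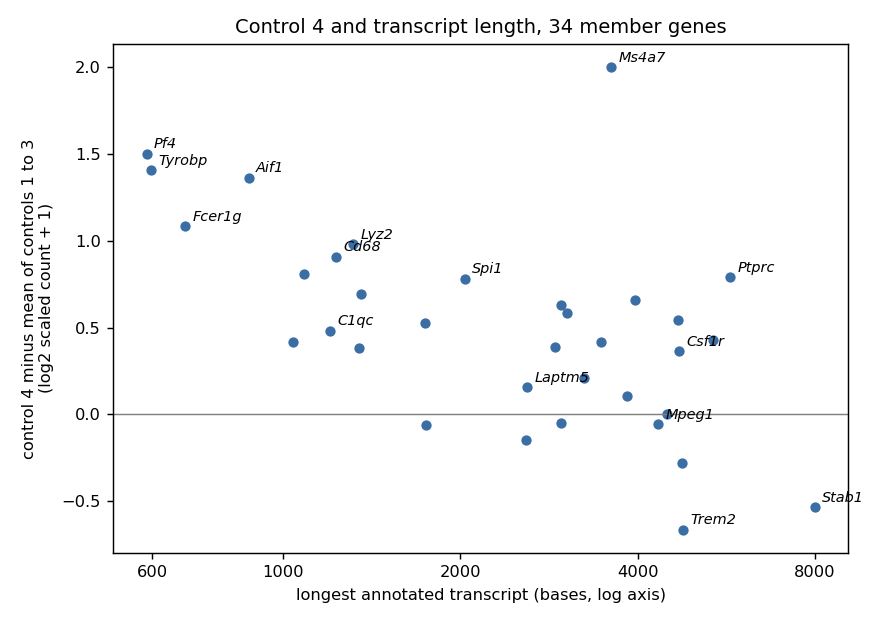
Control 4 minus the mean of controls 1 to 3, in log2(scaled count + 1), against the longest annotated transcript in bases (log axis), 1 point per gene for the 34 genes tested. The 4 shortest genes lie between 1.08 and 1.503, and Stab1, the longest, lies at −0.53. The highest point is Ms4a7 (2.00, at 3607 bases) and the lowest is Trem2 (−0.66, at 4784 bases).

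Without control 4, Csf1r and C1qc rose in mutants. The difference was 0.83 log2 units for C1qc (SE 0.13, adjusted p = 0.0268) and 0.56 for Csf1r (SE 0.10, adjusted p = 0.0326), and these were 2 of 34 genes past the threshold, against 0.401% of all genes higher (60) and 1.19% in either direction. Stab1 (0.60, adjusted p = 0.0513) and C1qb (0.83, adjusted p = 0.0568) were the next closest. With any other single library left out, 0 of 34 passed, and the adjusted p of C1qc was at most 0.315 and that of Csf1r at most 0.358. The median log2 fold change of the 34 was 0.54 without control 4. The fold changes of 11 of 34 genes moved by over 1.5 times without control 4, among them Pf4 (0.78), Tyrobp (0.56), Fcer1g (0.54), Aif1 (0.51), Ptprc (0.39), Rac2 (0.35) and F13a1 (0.33). Without control 1 those of 16 genes did, among them Adgre1 (0.34), Cd53 (0.31), Pf4 (0.13), Ctss (0.054) and Itgam (0.034). Leaving out any 1 of the other 6 libraries did so for 6 to 10 genes. Among the 7 genes whose groups did not overlap, 0 moved so far. They were picked from these same libraries, and that choice favours genes of small spread.

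The authors' deposited table of 644 genes corresponded to a comparison without control 4. Its mean normalized count per gene was set against means recomputed here from the recovered counts, for 628 genes matched by symbol. Leaving out control 4, the recomputed mean was within 1% of the deposited one for 626 of 628 genes (median difference 0.0022%). With all 8 libraries 4 genes were within 1% (median difference 14.1%), and leaving out any other single library gave 2 to 11. Of the 35 myeloid genes, 8 (22.9%) were in the authors' deposited table, whose 644 genes are 3.02% of all gene rows. All 8 were higher in mutants, as were 59.5% of the 644. The authors' deposited table put C1qc at 0.83 log2 units (SE 0.16, adjusted p = 4.95e-05), Csf1r 0.56 (SE 0.12, adjusted p = 0.00018) and Stab1 0.59 (SE 0.13, adjusted p = 0.00032). For C1qb it was 0.81 (adjusted p = 0.0013), for Lcp1 0.52 (0.0057), for Laptm5 0.52 (0.0105), for Mpeg1 0.76 (0.0249) and for C1qa 0.73 (0.0485), all from the authors' deposited table. The other 27 genes were not in that table, whose highest adjusted p was 0.0498. No source used here gives the rule by which its genes were chosen.

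**Figure D4:**
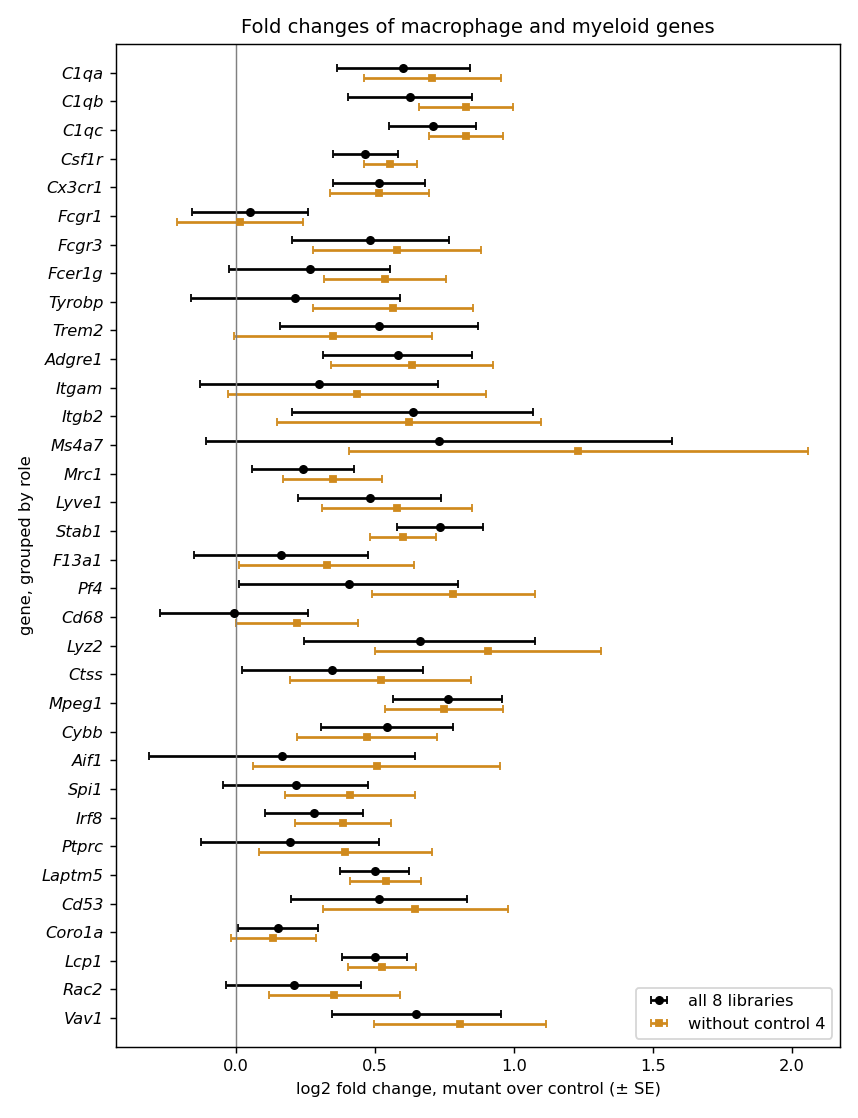
Log2 fold change, mutant over control, with SE for the 34 genes tested, in order of role. Black points use all 8 libraries and orange squares leave out control 4; 33 of 34 black points and 34 of 34 orange squares are above 0.

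The libraries that share a number in their names gave unequal pictures. Among the 4 libraries of the first number, both mutants were above both controls in 22 of 34 genes, against 20.6% of all genes. In the pair of the second number, mutant 4 was above control 4 in 23 of 34 genes, against 53.1% of all genes. The mean centred log2 level of the 34 genes was 0.018, 0.089, 0.32 and 0.42 for mutants 1 to 4, against −0.66, −0.18, −0.17 and 0.16 for controls 1 to 4. Control 4 was thus above mutants 1 and 2. With the number in the library names as a block, the median log2 fold change was 0.40 and 0 of 34 passed.

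Endothelial and tubule markers had positive fold changes too, and 0 of them passed the threshold. All 14 endothelial markers had positive fold changes (median 0.30, 0 past the threshold, lowest adjusted p 0.104 for Tie1, with Tek at 0.106). At an unadjusted p below 0.05 by limma, 9 of 14 were higher in mutants, against 6.33% of all genes. In 3 of 14, every mutant lay above every control, against 4.17% of all genes. Summed scaled counts of the 14 were 33384 to 37949 in mutants and 23030 to 30538 in controls. With the mean endothelial level as a covariate, the median log2 fold change of the 34 genes was −0.034, 16 were positive and 18 negative, and 0 passed. The endothelial level itself did not overlap between genotypes (0.072 to 0.30 in mutants, −0.45 to −0.034 in controls). This fit therefore separates it from genotype poorly, and the cause was not tested. The 5 tubule and podocyte markers tested, of 9, were all positive (Synpo 0.81, adjusted p = 0.190; Cubn 1.68, adjusted p = 0.469), with a mean centred level of 2.06, 3.15 and 1.504 in mutant 3, mutant 4 and control 4 and of −2.91 to −0.58 in the other 5 libraries. With that level as a covariate the median of the 34 was 0.21, with 25 positive and 9 negative. Of 7 nephron progenitor markers 7 were negative, and Osr1 (−1.69, adjusted p = 0.0152) and Crym (−2.87, adjusted p = 0.0185) fell.

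**Figure D5:**
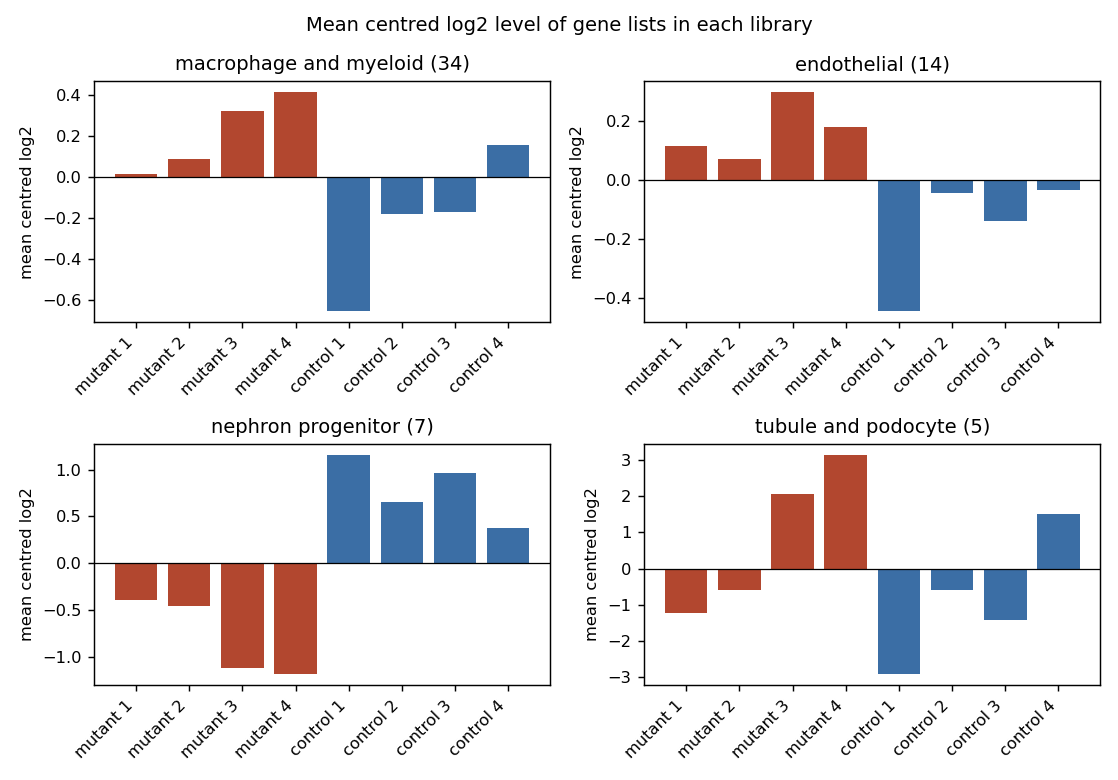
Mean centred log2 level of 4 gene lists in each library (bars, in log2 units, on separate axes), mutants left of controls. The macrophage and myeloid level is lowest in control 1 (−0.66), as is the endothelial one (−0.45), and the tubule and podocyte level is high in mutant 3, mutant 4 and control 4.

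Further lists of macrophage, leukocyte and phagocyte genes, some of which other kidney cells also make, had mostly positive fold changes. Among 36 further macrophage genes tested, 31 were positive (median 0.34) and 0 passed. The lowest was Sall1 (−0.27, adjusted p = 0.649), which nephron progenitors also make. Slco2b1, an organic anion transporter, had 147, 175, 158 and 200 scaled counts in mutants, against 65.4, 120, 96.0 and 91.3 in controls (0.88, adjusted p = 0.138). Of 18 further pan-leukocyte genes tested 16 were positive and 0 passed. Nckap1l, a WAVE complex subunit of blood cells, had 212, 190, 209 and 185 in mutants, against 118, 127, 123 and 105 in controls, with no overlap (0.75, adjusted p = 0.0858), and Hcls1, a cortactin relative, had 0.48 (adjusted p = 0.261). Of 14 ITAM signalling genes tested 11 were positive and Syk rose. Syk, a kinase that binds ITAM adaptors and is also found in epithelium, had 1781, 1614, 1777 and 1498 in mutants, against 957, 1115, 948 and 789 in controls (0.81, SE 0.12, adjusted p = 0.0221; up to 0.125 with 1 library left out). Inpp5d, a phosphatase of the same pathway, had 0.38 (adjusted p = 0.305). Of 5 oxidase partners 4 were positive and 0 passed (Ncf4 0.80, adjusted p = 0.569; Cyba 0.40, adjusted p = 0.655). Of 10 other complement genes tested 9 were positive and 0 passed (C3 2.50, adjusted p = 0.332; Cfb 0.64, adjusted p = 0.474).

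Ligands of these receptors did not pass. Csf1, a ligand of the CSF1 receptor, had 298, 303, 411 and 348 scaled counts in mutants, against 349, 288, 313 and 340 in controls (0.066, SE 0.14, adjusted p = 0.890). Il34, its other ligand, had 26.1 to 54.5 in mutants and 9.32 to 41.5 in controls (0.68, adjusted p = 0.620), and Cx3cl1, the ligand of CX3CR1, had 178 to 261 in mutants and 134 to 282 in controls. Gas6, a bridging ligand for dying cells, had a fold change of 0.40 (adjusted p = 0.533). Csf3, the granulocyte growth factor, had 39.97, 39.2, 12.2 and 7.91 in mutants, against 168, 81.3, 140 and 69.2 in controls, with no overlap (−2.37, SE 0.55, adjusted p = 0.117). The authors' deposited table gave Csf3 −2.38 (adjusted p = 0.00065). Of the 8 ligand and chemokine genes tested, 6 were positive and 2 negative.

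Markers of other blood cells were examined in the same way. Of 13 monocyte and neutrophil markers 5 passed the filter, 3 positive and 2 negative, with 0 past the threshold. Ccr2, a monocyte receptor, had 13.9, 14.7, 7.84 and 28.1 scaled counts in mutants, against 25.8, 25.7, 40.1 and 19.4 in controls (−0.83, adjusted p = 0.524), and Prtn3 had 0.35 (adjusted p = 0.578). The neutrophil genes S100a8 and S100a9 did not exceed 19.3 in any library, and the monocyte gene Ly6c2 was at 0 in 6 of 8. Of 11 lymphoid markers 2 passed the filter, Cd79a (−1.03, adjusted p = 0.335) and Cd79b (0.22, adjusted p = 0.757). Of 7 mast cell and basophil markers 2 did, Cpa3 (0.59, adjusted p = 0.658) and Hdc (1.53, adjusted p = 0.707). All 4 megakaryocyte markers tested were positive, led by Gp1bb (2.51, adjusted p = 0.357) and Ppbp (1.44, adjusted p = 0.471). Of 8 erythroid markers 7 were positive (Epor 0.42, adjusted p = 0.529). The negative one was Hba-a2 (−2.26, adjusted p = 0.568), whose near copy Hba-a1 was at 0.31 (adjusted p = 0.677). Their summed scaled counts were 174250 to 319861 in mutants and 153567 to 246277 in controls, which overlap, so Hba-a2 alone is uncertain. Of 6 lymphatic and sinusoidal endothelial markers 4 were positive (Flt4 0.42, adjusted p = 0.248; Stab2 0.81, adjusted p = 0.368), and of 7 stroma markers 5 were (Tbx18 0.50, adjusted p = 0.278; Col3a1 0.37, adjusted p = 0.297). In these lists 0 genes passed. The part of these cell types in the myeloid levels was not tested.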

How the data were processed

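RNA of 8 whole kidney pairs was sequenced by the submitters. The authors' deposited table holds log2 values that, judged by their size, are log2(estimated count + 1) with no depth correction: after undoing the log, 67.8% of values above 0 were whole within 1e-06. Per the submitters' processing notes, fastp 0.23.2, kallisto 0.46.0 and DESeq2 1.40.2 were used, in roles not stated. The authors' second table lists, per the file headers, a mean normalized count (a signal) for each gene, its log2 fold change and SE, the test score and p-values.

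Recovered counts were divided by median-of-ratios size factors, 0.361 in control 4 and 1.07 to 1.27 elsewhere. Genes at 10 scaled counts or more in 4 libraries or more (14974) were fitted on log2(scaled count + 1) by limma 3.58.1 in R 4.3.3, using eBayes with a trend and genotype alone. Tests were two-sided, with Benjamini-Hochberg adjustment over all 14974 genes, and 0.05 was the threshold. The log scale understates fold changes of low genes. P-values set the difference between genotypes against the spread between libraries of the same genotype, and sex differed along with genotype. The median count of the 34 tested genes was 63 in control 4 and 98.5 to 189 elsewhere. Genes and lists were chosen with earlier results of these data known. Values in every library were set to be given for C1qc, Csf1r, Adgre1, the 6 smallest p, the highest and lowest fold change and the largest spread within groups. From each other list, genes past the threshold and the 2 smallest p were named, except 1 gene that is not reported here. Other values by library, and Csf1, Il34, Cx3cl1, S100a8, S100a9, Ly6c2, Lyz1, Fcgr2b, Fcgr4 and the ratios, were chosen after values were seen. Positions and lengths are from GENCODE M21 on GRCm38. The fit was also run on simulated data, with genes drawn independently and with larger shifts than the 34 genes had. That run does not show how the fit treats shifts of their size. No libraries were identical. Alternatives were other filters, pseudocounts, scalings, spread models, blocks, covariates and left-out libraries.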

Additional observations from a re-analysis of the deposited data

Results flagged for a closer look

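The 35 genes and their mean level were examined in both genotypes, 72 groups of 4 libraries. In 5 of them 1 library stood apart from the other 3 by Dixon's ratio, and chance gives about 1 in 20. All 5 were among mutants. C1qc in mutant 3 had 445 scaled counts, and the other mutants reached at most 379. Adgre1 in mutant 1 had 100.3, against at least 141 in the other mutants. Itgam in mutant 3 had 35.7, against at most 22.5. Cd53 in mutant 4 had 65.0, against at most 47.9. Trem2 in mutant 2 had 24.1, against at least 30.2.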

How the results depend on the processing

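Over all genes, 45 passed the threshold. The count was 11 with total count scaling, 80 with no depth correction, 28 without the trend, 69 with limma voom, 748 with library weights, 16 in the 4 libraries sharing the first number, 130 with the tubule covariate, 3 with the endothelial covariate and 122 at an adjusted p below 0.1. With 1 library left out it was 9 to 178. Of the 34 genes, 0 passed, 6 with library weights (Lcp1, Csf1r, Laptm5, C1qc, C1qb, Stab1) and 0 to 2 with 1 library left out. Alternatives chosen after seeing the data gave 170 genes and 2 of the 34 without control 4 with new size factors, 137 and 2 without it by voom, 190 and 2 without mutant 4 and control 4, and 148 and 1 without mutant 3 as well.

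The median fold change of 0.48 was 0.94 with no depth correction (0.48 for all genes), 0.21 with the tubule covariate, −0.034 with the endothelial covariate and 0.32 to 0.54 with 1 library left out. Every mutant was above every control in 7 genes (4.17% of all genes), in 12 with total count scaling (7.65%), 11 with that scaling without Lars2 (5.98%), 13 with no depth correction (8.28%), 22 in the libraries of the first number (20.6%), 14 without mutant 4 and control 4 (10.5%), and 7 to 13 with 1 library left out (5.14% to 8.57%).

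The labels do not say that replicate numbers pair the libraries. Deviations of same-numbered libraries correlated at 0.27, 0.098, −0.13 and 0.35. Those of differently numbered mutants and controls correlated at −0.31 to 0.24, which does not settle whether libraries were paired. With the replicate block 133 genes and 0 of the 34 passed.

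Cd68, at −0.0089, had no settled sign. It was 0.12 with total count scaling, 0.052 without Lars2 and 0.46 with no depth correction, against medians over all genes of 0.14, 0.069 and 0.48. It was 0.13 (voom), 0.043 (weights), 0.020 (library-name block), 0.41 (first number), and, chosen later, 0.22 (new size factors), 0.24 (voom without control 4), 0.24 (without mutant 4 and control 4) and 0.21 (without mutant 3 as well). It ran from −0.17 to 0.22 with 1 library left out. F13a1 was −0.14 in the first number and −0.14 without mutants 3 and 4 and control 4. With the tubule covariate F13a1 was −0.26, Spi1 −0.0063, Aif1 −0.20, Ptprc −0.20, Pf4 −0.067, Tyrobp −0.20, Ctss −0.035 and Fcer1g −0.0077. With the endothelial covariate F13a1 was −0.53, Spi1 −0.076, Adgre1 −0.11, Fcgr1 −0.0052, Aif1 −0.80, Ms4a7 −1.84, Ptprc −0.86, Mrc1 −0.21, Pf4 −0.62, Tyrobp −0.64, Itgam −0.74, Rac2 −0.062, C1qa −0.10, Ctss −0.63, Cd53 −0.13, Fcer1g −0.15 and Lyz2 −0.13. With 1 library left out F13a1 ran from −0.11 to 0.33, Aif1 from −0.11 to 0.51, Ms4a7 from −0.22 to 1.23, Ptprc from −0.075 to 0.39 and Tyrobp from −0.056 to 0.56. The cause was not tested for any of these. At the depth of control 4, 25 of 34 genes had under 100 counts.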

Other observations

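Hdc, which encodes histidine decarboxylase and marks mast cells and basophils, had 25.3, 32.6, 391 and 1121 scaled counts in mutants 1 to 4, against 11.97, 41.9, 19.6 and 493 in controls 1 to 4. Mutant 3, mutant 4 and control 4 were its high libraries, and they were also the high ones for the tubule and podocyte markers. Cpa3, another mast cell gene, had 24.5 to 38.4 in mutants and 9.32 to 41.5 in controls.

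Hba-a2, an alpha globin gene of red cells, had 117584, 172305, 1818 and 1879 scaled counts in mutants 1 to 4, against 95589, 89282, 86046 and 50168 in controls 1 to 4. Its near copy Hba-a1 had 99593, 147557, 201211 and 172370 in mutants, against 85951, 156995, 153273 and 103399 in controls. Mutants 3 and 4 were low for Hba-a2 and high for Hba-a1. The sum of both was 217177, 319861, 203029 and 174250 in mutants, against 181540, 246277, 239319 and 153567 in controls, and overlapped between the groups.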
